A study of Homo sapiens with 4 samples.

Results

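The genes described here encode the pore-forming and auxiliary subunits of voltage-gated calcium channels, the transient receptor potential (TRP) cation channels and the channels and sensors through which calcium leaves and refills intracellular stores. They were taken from the deposited count table by gene symbol, as all protein-coding genes of the CACNA1, CACNA2D, CACNB and CACNG families, the numbered TRPA, TRPC, TRPM and TRPV genes, and the ORAI, STIM, RYR and ITPR genes, and the rule itself uses no measured value. The rule found 58 of the 61544 genes of the table, and 50 of them had at least 1 count in at least 1 library. The study sequenced RNA from a pair of human colorectal carcinoma lines, HT29 and HCT116, which served as a culture model of inflamed intestinal epithelium. HT29 and HCT116 were each sequenced once after 1 ug/mL lipopolysaccharide (LPS, a bacterial cell wall component) for 24 h and once as the control, giving 4 libraries with 1 library per condition. All 4 cultures shared the same DMEM/F-12-based medium with fetal bovine serum, GlutaMAX and a mycoplasma prevention reagent.

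Voltage-gated calcium channels open when the membrane is depolarised. Their pore is the alpha-1 subunit (CACNA1 genes), and the alpha-2/delta (CACNA2D) and beta (CACNB) subunits govern how many channels reach the membrane and how they gate. TRP channels conduct cations in response to heat, chemical ligands, lipids or calcium itself, and in gut epithelium they are known from magnesium and calcium uptake and from the chemosensory tuft cells. Non-excitable cells such as epithelium rely mainly on another route, in which receptors that activate phospholipase C raise inositol trisphosphate (IP3), IP3 receptors (ITPR genes) release calcium from the endoplasmic reticulum, STIM proteins sense the emptied store, and ORAI proteins form the entry pore in the plasma membrane.

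The libraries held between 19105058 and 21268959 counts, and the channel genes took 0.109% and 0.0934% of them in HT29 with LPS and control, and 0.116% and 0.112% in HCT116 with LPS and control. Pairs of counts below are given in that order, LPS before control within each line, and a count of 0 in both libraries of a line allows up to 3 counts over the pair. The 7 epithelial markers examined summed to 16532 and 17729 counts-per-million units (CPM) in HT29 and to 3340 and 3307 CPM in HCT116, with KRT20 at 0 in all 4 libraries. Fibroblast, muscle, immune and neuroendocrine marker lists each summed to between 0.444 and 98.4 CPM in any library. COL1A1 made up all of the fibroblast sum, with 59 and 81 counts in HT29 against 1999 and 2225 in HCT116, while COL1A2, DCN and PDGFRA were at 0 in all libraries. Mitochondrial genome transcripts took 4.29% and 3.75% of counts in HT29, and 7.16% and 5.01% in HCT116.

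The first question was which channels each line expressed. A gene was counted as measured in a line when its mean over the 2 libraries reached 1 CPM, after scaling with TMM factors. By that measure 22 channel genes were measured in HT29 and 35 in HCT116. The lines shared 19 of them, HT29 alone had 3 (CACNG4, TRPM5 and TRPV6), HCT116 alone had 16, and 20 were measured in neither line. Conversely, 18 genes had no count in either HT29 library and 13 had none in either HCT116 library.

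**Figure D1:**
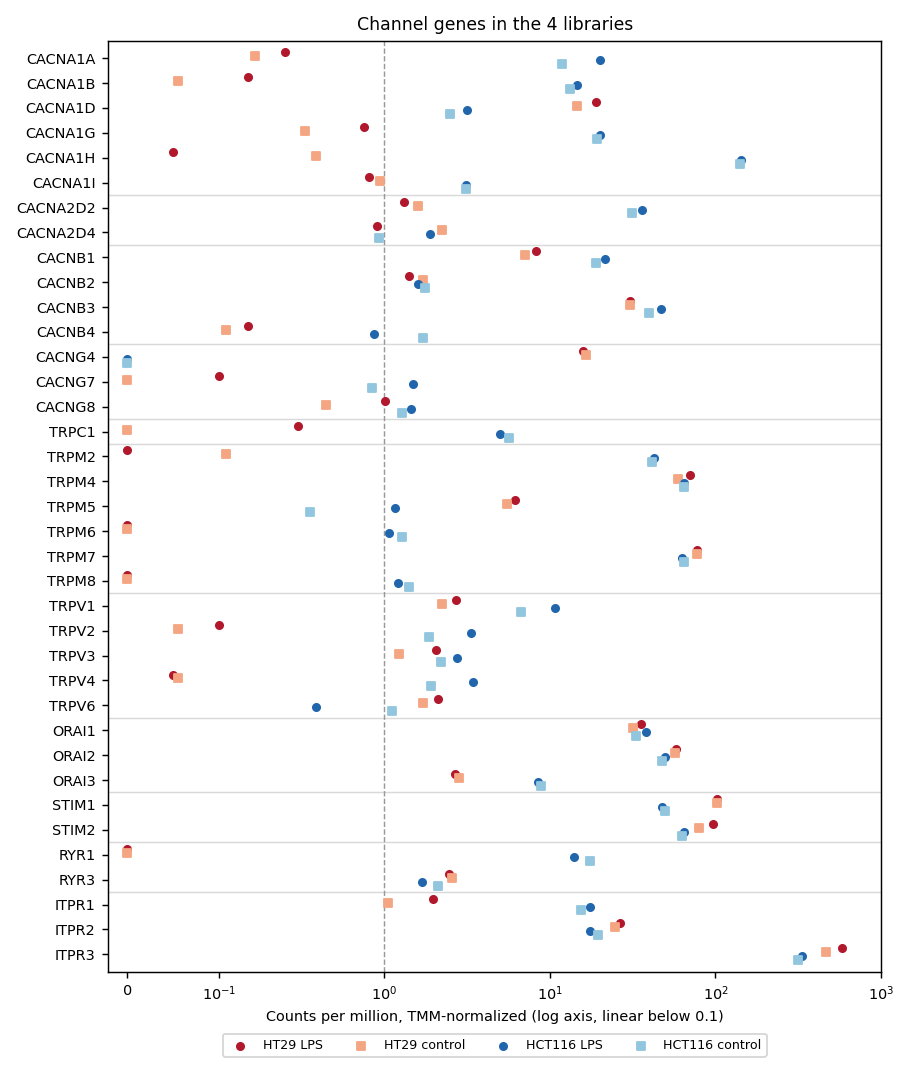
TMM-normalized CPM (log axis, linear below 0.1) of 37 channel genes measured in at least 1 line, grouped by family, with 1 point per library (HT29 in reds, HCT116 in blues, circles for LPS and squares for control; the dashed line marks 1 CPM). Points of the same line lie close together for most genes, whereas CACNA1H, TRPM2 and RYR1 have their HCT116 points far above their HT29 points and CACNG4 has them at 0.

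Between the lines, the 33 genes that averaged 1 CPM or more across the 4 libraries were tested with edgeR's quasi-likelihood test, with LPS as a block and p-values adjusted by the Benjamini-Hochberg method over 14516 genes. HT29 was higher for 10 and lower for 16 of the channel genes, and 7 were not called. Of all genes tested, 38.0% were called higher and 38.6% lower in HT29, so a call between the lines was the common outcome. Differences of over 2 on the log2 scale were less common among all genes, at 7.21% higher and 14.0% lower in HT29. Among the channel genes, 3 were higher by that much (CACNG4, TRPM5 and CACNA1D) and 11 were lower. Of those 11, 9 did not reach 1 CPM in HT29 and entered the test only through HCT116, where they had to be higher, and likewise CACNG4 and TRPM5 entered only through HT29. The filter also fixed the direction of CACNA1I and CACNG8, which entered only through HCT116, and of TRPV6, which entered only through HT29. Of the 33 tested genes, 11 were thus measured in HCT116 alone and 3 in HT29 alone, and their test values are no support for that direction. These counts are therefore a description of the genes and not support for a family-wide difference. Each line is 1 cell line with 1 library per condition, and the test treats the LPS and control libraries of a line as its replicates. In bulk RNA, fewer expressing cells and less RNA per cell cannot be told apart.

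**Figure D2:**
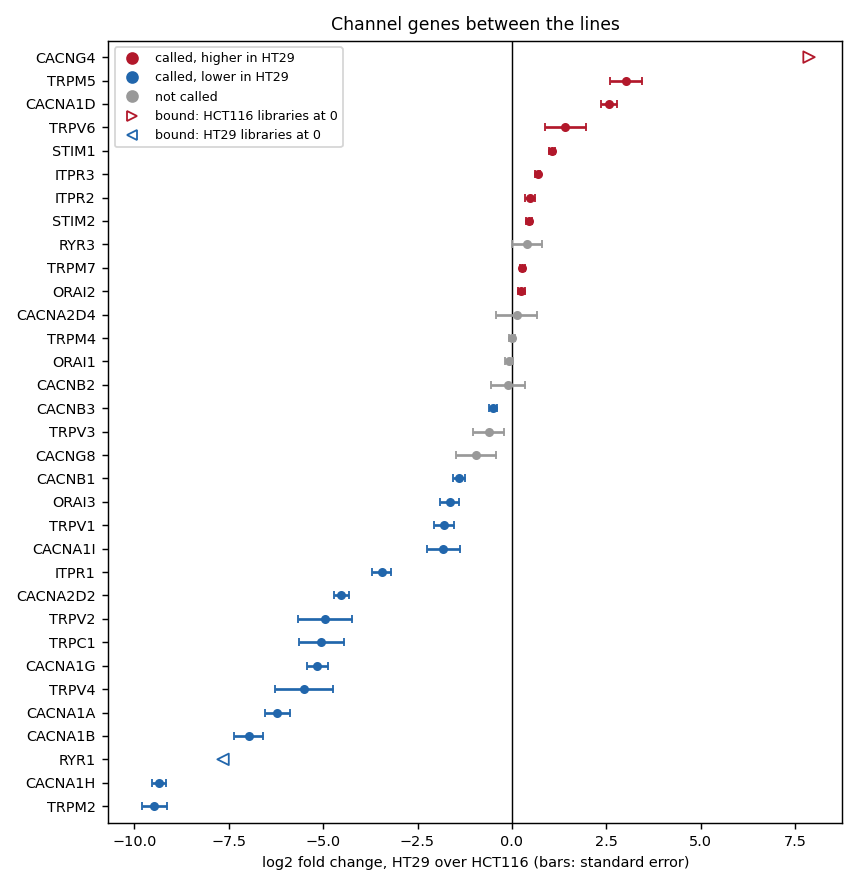
Log2 fold change of HT29 over HCT116 for the 33 tested channel genes, ordered by size, with standard errors as bars and open triangles where one line had no count and only a bound is known. The 10 genes called higher in HT29 are at most 3.03 on the log2 scale apart from the CACNG4 bound, while the genes called lower reach -9.34 (CACNA1H) and -9.47 (TRPM2).

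The promoter sequences of 4 genes show the start regions of genes with large and small differences between the lines. RYR1, CACNA1B and TRPM2 were close to or at 0 in HT29 and are described below, and TRPM7 is shown beside them as a gene abundant in both lines. Each run is 300 bases, from 250 before to 50 after the gene start in RefSeq on GRCh38.p14, read 5′ to 3′ on the gene's strand, with every CG pair in capitals.
RYR1 (chr19:38433441-38433740, plus strand): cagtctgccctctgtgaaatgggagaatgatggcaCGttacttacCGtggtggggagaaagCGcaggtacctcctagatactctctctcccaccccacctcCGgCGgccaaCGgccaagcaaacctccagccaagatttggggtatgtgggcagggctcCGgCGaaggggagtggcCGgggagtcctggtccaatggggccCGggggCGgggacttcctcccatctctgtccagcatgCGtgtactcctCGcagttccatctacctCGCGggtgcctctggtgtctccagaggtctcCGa
CACNA1B (chr9:137877532-137877831, plus strand): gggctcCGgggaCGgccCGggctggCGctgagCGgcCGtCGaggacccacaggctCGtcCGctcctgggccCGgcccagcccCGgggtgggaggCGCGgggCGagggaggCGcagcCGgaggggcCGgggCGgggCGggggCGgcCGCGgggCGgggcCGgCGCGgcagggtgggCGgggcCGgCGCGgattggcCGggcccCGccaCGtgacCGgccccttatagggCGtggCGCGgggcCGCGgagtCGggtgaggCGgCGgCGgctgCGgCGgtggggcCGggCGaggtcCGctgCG
TRPM2 (chr21:44353371-44353670, plus strand): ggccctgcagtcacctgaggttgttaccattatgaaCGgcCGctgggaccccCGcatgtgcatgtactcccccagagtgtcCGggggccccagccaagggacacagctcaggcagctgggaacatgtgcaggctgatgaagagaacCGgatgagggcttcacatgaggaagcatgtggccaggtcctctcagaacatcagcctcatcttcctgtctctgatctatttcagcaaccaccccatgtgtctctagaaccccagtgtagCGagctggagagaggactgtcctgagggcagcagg
TRPM7 (chr15:50686748-50687047, minus strand): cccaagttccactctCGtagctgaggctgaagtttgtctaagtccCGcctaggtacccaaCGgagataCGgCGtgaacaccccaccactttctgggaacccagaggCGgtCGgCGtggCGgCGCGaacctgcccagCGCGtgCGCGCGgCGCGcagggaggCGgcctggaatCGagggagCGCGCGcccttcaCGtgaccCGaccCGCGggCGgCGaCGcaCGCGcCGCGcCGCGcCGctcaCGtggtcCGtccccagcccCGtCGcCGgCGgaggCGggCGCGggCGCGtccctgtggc
The motif counted was CG, which reads the same on both strands. The RYR1 promoter held 16 CG pairs, CACNA1B 49, TRPM2 6 and TRPM7 48. Across 35116 promoters of the same length the median was 14, and 96.0% held at least 1. At least as many pairs as in RYR1 were found in 47.5% of them, as many as in CACNA1B in 1.60%, as many as in TRPM2 in 66.3% and as many as in TRPM7 in 1.98%. The CG-dense windows thus belonged both to a gene near 0 in HT29 and to a gene high in both lines. Of the 58 channel genes, 40 had an entry in the promoter table, with a median of 20 pairs. The TRPM2 start in RefSeq lies 3458 bases from the outermost start in GENCODE 44, so its window is one of several possible.

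Of the 6 voltage-gated alpha-1 genes tested, 1 was called higher in HT29 and 5 were called lower, against 38.0% higher and 38.6% lower among all genes. The 5 lower genes did not reach 1 CPM in HT29. They entered the test only through HCT116, where they had to be higher, so their shared direction is not a result about the family. CACNA1D, an L-type pore gene at chr3:53328963-53813733 on the plus strand, had 379 and 262 counts in HT29 against 65 and 56 in HCT116. Both HT29 libraries were above both HCT116 libraries, and CACNA1D was higher in HT29 by 2.58 ± 0.21 on the log2 scale (SE, 2 libraries per line, adjusted p = 5.24e-10). It shares 7.29% of its exon bases with another gene, CHDH, which had 1429 and 1208 counts in HT29 against 1059 and 1141 in HCT116.

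The T-type pore gene CACNA1H (chr16:1153106-1221771, plus strand), whose channels open near the resting potential, had 1 and 7 counts in HT29 against 2948 and 3171 in HCT116. The log2 fold change of CACNA1H was -9.34 ± 0.19 (adjusted p = 1.7e-19), and no HT29 library came within reach of the HCT116 libraries. The other T-type genes were also lower in HT29. CACNA1G had 15 and 6 counts in HT29 against 418 and 438 in HCT116 (log2 fold change -5.16 ± 0.28, adjusted p = 8.98e-13). CACNA1I, a mainly neuronal T-type gene, had 16 and 17 counts in HT29 against 64 and 70 in HCT116 (log2 fold change -1.82 ± 0.43, adjusted p = 0.000739).

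The pore genes of the high-voltage channels known from nerve terminals were nearly restricted to HCT116 in these libraries. CACNA1A, the P/Q-type pore (chr19:13206442-13633025, minus strand), had 5 and 3 counts in HT29 against 416 and 269 in HCT116, a log2 fold change of -6.22 ± 0.33 (adjusted p = 6.34e-13). CACNA1B, the N-type pore, had 3 and 1 counts in HT29 against 302 and 301 in HCT116, a log2 fold change of -6.97 ± 0.39 (adjusted p = 1.57e-12). The list of 9 neuroendocrine and neuronal markers moved with them, summing to 1.96 and 2.27 CPM in HT29 and to 19.7 and 16.4 CPM in HCT116. Most of that sum was SCG2, a secretory granule gene with 6 and 4 counts in HT29 against 275 and 250 in HCT116. RBFOX3, SNAP25, SYP and TPH1 were also higher in count in HCT116, at 0 to 25 counts in HT29 and 11 to 50 in HCT116, whereas the granule markers CHGA and CHGB had at most 1 count, INSM1 at most 1 and NEUROD1 at most 3. The part of these genes in the result was not tested. The remaining alpha-1 genes, CACNA1C, CACNA1E, CACNA1F and CACNA1S, stayed between 0 and 19 counts. Among them CACNA1C, also an L-type gene, did not follow CACNA1D. It had 0 counts in both HT29 libraries against 19 and 11 in HCT116, too low to be tested.

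Summed per length, the alpha-1 genes of HT29 were mainly L-type (CACNA1D alone) and those of HCT116 mainly T-type. The level used for such sums between genes was TMM-scaled CPM divided by the exon length in kilobases. L-type genes held 84.9% and 81.2% of the summed alpha-1 level in HT29 with LPS and control, and 1.08% and 0.731% in HCT116 with LPS and control. T-type genes held 13.3% and 17.8% in HT29, and 89.7% and 91.3% in HCT116. With the longest transcript as length, the T-type share in HT29 was 7.78% and 10.3%, the L-type share in HCT116 was 1.77% and 1.31%, and the leading class of each line stayed the same. The sums behind these shares differed as well, with 0.156 and 0.165 for T-type genes in HT29 and 18.8 and 18.5 in HCT116. The leading class was the same with LPS and in the control of each line, but the shares were not identical. By counts, P/Q-, N- and R-type genes held 17.0% (interval 15.9 to 18.2) in HCT116 with LPS and 13.2% (12.2 to 14.3) in its control. T-type genes held 80.9% (79.7 to 82.1) and 85.2% (84.1 to 86.3). These intervals cover counting error only.

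**Figure D3:**
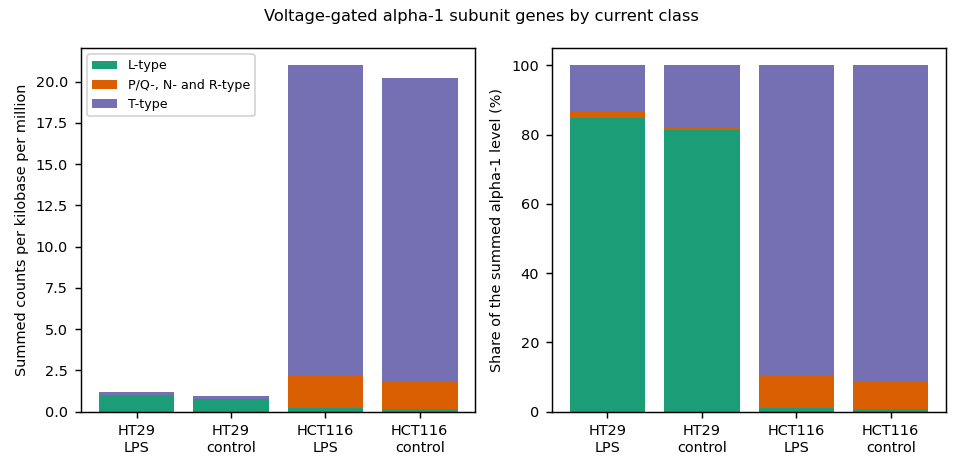
Voltage-gated alpha-1 genes by current class in the 4 libraries, as summed CPM per kilobase of exon (left) and as each class's share of the sum in percent (right). The L-type share is 84.9% and 81.2% in the HT29 libraries, and the T-type share is 89.7% and 91.3% in the HCT116 libraries, whose total level is far higher.

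Among the auxiliary subunits, CACNA2D2, an alpha-2/delta gene, followed the alpha-1 genes of HCT116, with 26 and 29 counts in HT29 against 740 and 711 in HCT116 (log2 fold change -4.52 ± 0.20, adjusted p = 3.93e-14). The beta subunit genes differed much less. CACNB3 had 606 and 547 counts in HT29 against 970 and 900 in HCT116 (log2 fold change -0.51 ± 0.11, adjusted p = 0.000238). CACNB1, the beta subunit of skeletal muscle channels, had 164 and 128 counts in HT29 against 448 and 429 in HCT116 (log2 fold change -1.40 ± 0.17, adjusted p = 2.4e-07). CACNB2 was not called between the lines, with 28 and 31 counts in HT29 against 33 and 40 in HCT116. CACNB4 was sparse, with 3 and 2 counts in HT29 against 18 and 39 in HCT116, and was too low to be tested. CACNA2D4 had 18 and 40 counts in HT29 against 39 and 21 in HCT116 and was not called between the lines (log2 fold change 0.12 ± 0.54, adjusted p = 0.841). CACNA2D1 and CACNA2D3 had at most 3 counts in any library.

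CACNG4 was the 1 gamma subunit gene abundant in HT29. Its protein is better known as an auxiliary subunit of AMPA-type glutamate receptors than of calcium channels. It lies at chr17:66964707-67033398 on the plus strand and had 315 and 297 counts in HT29 against 0 in both HCT116 libraries, which makes it at least 233-fold higher in HT29 against a floor of 3 counts over the HCT116 pair (adjusted p = 4.77e-13). Its direct neighbours, the gamma genes CACNG5 (70.0 kb away) and CACNG1 (11.2 kb away), had between 0 and 2 counts in every library. The high level was thus limited to 1 gene of this 3-gene cluster. In the other gamma cluster, on chromosome 19, CACNG7 had 2 and 0 counts in HT29 against 31 and 19 in HCT116. CACNG8 had 20 and 8 counts in HT29 against 30 and 29 in HCT116 (adjusted p = 0.113) and was called lower in HT29 only when HT29 with LPS was left out (adjusted p = 0.027). CACNG6 had 22 and 11 in HT29 and 0 and 1 in HCT116 and was too low to be measured in either line. CACNG2 and CACNG3 were at 0 throughout.

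Of the TRP genes, the melastatin family (TRPM) had the highest levels per length, led in both lines by TRPM4 with a mean of 9.80 CPM per kilobase of exon in HT29 and 9.82 in HCT116. TRPM7, a channel fused to a kinase and known for magnesium uptake, had 1526 and 1386 counts in HT29 against 1296 and 1456 in HCT116 (log2 fold change 0.28 ± 0.075, adjusted p = 0.0024, against 0.16 when counts were scaled by library size alone). TRPM4, a calcium-activated channel for monovalent cations, had 1396 and 1067 counts in HT29 against 1341 and 1468 in HCT116, and was not called (log2 fold change -0.0064 ± 0.082, adjusted p = 0.945). Both were close in level in the lines, and the TRPM4 libraries overlapped.

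TRPM2, by contrast, was an HCT116 gene. It encodes a channel gated by ADP-ribose and known as a sensor of oxidative stress, lies at chr21:44350163-44443081 on the plus strand, and had 0 and 2 counts in HT29 against 877 and 933 in HCT116. The pooled level was 792-fold higher in HCT116, with a 95% counting interval from 219 to 6541, and the difference was called (adjusted p = 6.84e-16). TRPM5, the transduction channel of taste and tuft cells, went the other way, with 122 and 99 counts in HT29 against 24 and 8 in HCT116 (log2 fold change 3.03 ± 0.42, adjusted p = 1.63e-06). The other tuft cell markers did not all follow it, with POU2F3 at 12 and 14 counts in HT29 against 8 and 7 in HCT116, AVIL at 45 and 51 in HT29 and 44 and 39 in HCT116, and DCLK1 at 1 and 0 in HT29 and 11 and 11 in HCT116. TRPM6, a magnesium uptake channel of gut and kidney, and the cold sensor TRPM8 were at 0 in both HT29 libraries, against 22 and 29 counts of TRPM6 and 25 and 32 of TRPM8 in HCT116. In HCT116 they were at least 14.9-fold and at least 16.6-fold higher, as bounds with no test. TRPM1 and TRPM3 were at 0 in all libraries, though the TRPM1 sequence, like that of TRPV6, recurs on an alternate contig and its 0 is uncertain.

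The vanilloid family (TRPV) was low in both lines. TRPV6, the calcium-selective entry channel of absorptive epithelium, had 42 and 31 counts in HT29 against 8 and 25 in HCT116 (log2 fold change 1.42 ± 0.53, adjusted p = 0.0211), a call that was lost without HT29 with LPS (adjusted p = 0.056), without HCT116 with LPS (0.21) and in DESeq2 (0.13). TRPV6 did not reach 1 CPM in HCT116 and entered the test only through HT29, where it had to be higher. Its sequence also occurs on an alternate contig of the reference, which makes its counts uncertain. The same holds for the other calcium-selective member, TRPV5, which had no count. Of the intestinal markers, the brush border gene VIL1 had 3004 and 2637 counts in HT29 against 0 and 4 in HCT116, while the transcription factor CDX2 went the other way, with 39 and 18 in HT29 and 572 and 474 in HCT116. Their part in the TRPV6 result was not tested. The heat-activated members were lower in HT29 or undecided. TRPV1, the capsaicin receptor, had 54 and 40 counts in HT29 against 221 and 152 in HCT116 (log2 fold change -1.79 ± 0.27, adjusted p = 4.18e-06). TRPV3 lies 7.63 kb from it and was not called, with 41 and 22 counts in HT29 against 57 and 50 in HCT116 (adjusted p = 0.171). TRPV4, a channel opened by swelling and warmth, had 1 and 1 counts in HT29 against 71 and 43 in HCT116, a pooled level 49.9-fold higher in HCT116 (interval 13.5 to 417, adjusted p = 1.13e-06). TRPV2 was similar, with 2 and 1 counts in HT29 against 69 and 42 in HCT116 (32.4-fold higher in HCT116, interval 10.8 to 159, adjusted p = 1.97e-06).

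The canonical family (TRPC) was almost silent in HT29. TRPC1 had 6 and 0 counts in HT29 against 103 and 128 in HCT116 (log2 fold change -5.05 ± 0.60, adjusted p = 1.9e-07). TRPC4, TRPC5, TRPC6 and TRPC7 had between 0 and 3 counts, and TRPA1, the irritant receptor, had none.

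The store release and refill genes included the channel gene with the highest count in every library. ITPR3, the IP3 receptor at chr6:33620365-33696574 on the plus strand, had 11469 and 8369 counts in HT29 against 6885 and 7129 in HCT116. It alone took 50.4% and 46.9% of all channel counts in HT29 and 30.0% and 29.9% in HCT116. ITPR3 was higher in HT29 by 0.68 ± 0.072 on the log2 scale (adjusted p = 3.81e-08), with both HT29 libraries above both HCT116 libraries. It shares 10.4% of its exon bases with UQCC2, which had 635 and 583 counts in HT29 against 477 and 410 in HCT116.

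The other IP3 receptor genes split. ITPR2 was higher in HT29, with 528 and 445 counts there and 361 and 442 in HCT116 (log2 fold change 0.47 ± 0.14, adjusted p = 0.0039). ITPR1, the main receptor of cerebellar neurons, was lower in HT29, with 39 and 19 counts there and 361 and 347 in HCT116 (log2 fold change -3.45 ± 0.24, adjusted p = 6.88e-11). ITPR3 had the highest level per length of any channel gene in both lines, at a mean of 52.8 CPM per kilobase in HT29 and 32.8 in HCT116. ITPR2 averaged 1.84 in HT29 and 1.33 in HCT116 on that scale, and ITPR1 averaged 0.0470 in HT29 and 0.510 in HCT116. With the length of the longest annotated transcript ITPR1 averaged 0.152 in HT29 and 1.65 in HCT116, where it then stood above ITPR2 at 1.47, so their order in HCT116 depends on the length used.

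Both store sensors were higher in HT29. STIM1 had 2025 and 1833 counts in HT29 against 987 and 1118 in HCT116 (log2 fold change 1.07 ± 0.074, adjusted p = 5.53e-11). STIM2, which responds to smaller losses of store calcium, had 1914 and 1427 counts in HT29 against 1333 and 1426 in HCT116 (log2 fold change 0.46 ± 0.078, adjusted p = 2.54e-05). The entry pores did not follow the sensors as a group. ORAI1, the pore of the classical store-operated current, was not called, with 706 and 573 counts in HT29 against 785 and 752 in HCT116 (log2 fold change -0.08 ± 0.11, adjusted p = 0.502). ORAI2 had 1153 and 1027 counts in HT29 against 1019 and 1075 in HCT116 (log2 fold change 0.25 ± 0.085, adjusted p = 0.0118), a call that was lost with library size alone (adjusted p = 0.31) and without HT29 with LPS (0.080) or the HCT116 control (0.097). ORAI3 was lower in HT29, with 53 and 51 counts there and 175 and 199 in HCT116 (log2 fold change -1.65 ± 0.26, adjusted p = 7.59e-06). An unnamed annotated gene with no count overlaps 52.9% of the ORAI3 exon bases.

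Per length, the order of the store genes differed between the lines. In HT29, ORAI1 averaged 14.9 and STIM1 14.2 CPM per kilobase, whereas in HCT116 ORAI1 averaged 15.7 and STIM1 6.77, with STIM2 at 10.6 in HT29 and 7.69 in HCT116. ORAI1 and STIM1 did not separate in HT29, where their 2 libraries each overlapped, and with the length of the longest annotated transcript STIM1 (21.4) stood above ORAI1 (12.9) in HT29. In HCT116, ORAI1 stayed above STIM1 with either length (13.7 against 10.2 with the transcript length).

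**Figure D4:**
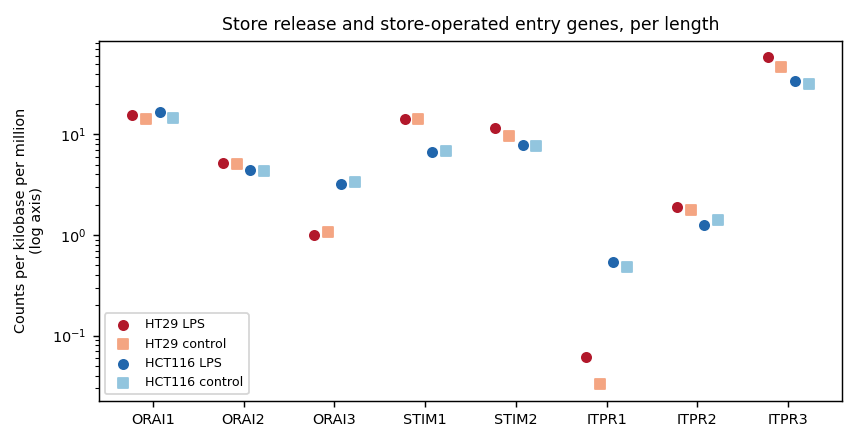
CPM per kilobase of exon (log axis) of the ORAI, STIM and ITPR genes, 1 point per library, HT29 in reds left of HCT116 in blues. ITPR3 is highest in all 4 libraries, the STIM1 points of HT29 lie above those of HCT116, and the ORAI3 and ITPR1 points of HT29 lie below.

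The ryanodine receptors are the other class of store release channel, known mainly from muscle and nerve. RYR1, the release channel of skeletal muscle (chr19:38433691-38595273, plus strand), was at 0 in both HT29 libraries and had 291 and 397 counts in HCT116, which makes it at least 201-fold lower in HT29 (adjusted p = 6.66e-13). The muscle marker list moved in the same direction, summing to 1.36 and 0.444 CPM in HT29 and to 8.84 and 10.8 CPM in HCT116. Of its genes, DES had 0 and 1 counts in HT29 against 61 and 103 in HCT116, ACTA2 had 9 and 4 in HT29 and 95 and 125 in HCT116, and CNN1 had 0 in both HT29 libraries and 19 and 6 in HCT116. TNNT2 did not follow, with 17 and 3 counts in HT29 against 8 and 7 in HCT116, MYH7 had at most 4 counts, and MYH11 and ACTC1 were at 0 in all libraries. The part of these genes in the RYR1 result was not tested. RYR3 was not called, with 49 and 46 counts in HT29 against 35 and 48 in HCT116 (adjusted p = 0.356), and the cardiac gene RYR2 had between 0 and 10 counts.

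The second question was how the channel genes changed with LPS. With 1 library per condition, the ratio of LPS over control within a line has no replicate check, and its 95% Clopper-Pearson interval covers counting error only. In HT29, 2 of the 22 measured genes had a log2 ratio above 0.58 (TRPV3 and ITPR1) and 1 was below -0.58 (CACNA2D4). Among all genes measured in HT29, 3.50% were above and 2.70% below those limits. In HCT116, 6 of 35 were above (CACNA1A, CACNA2D4, CACNG7, TRPV1, TRPV2 and TRPV4) and 1 was below (CACNB4), with 3.56% of all genes above and 2.34% below. Most of these genes had under 100 counts in either library of the line.

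**Figure D5:**
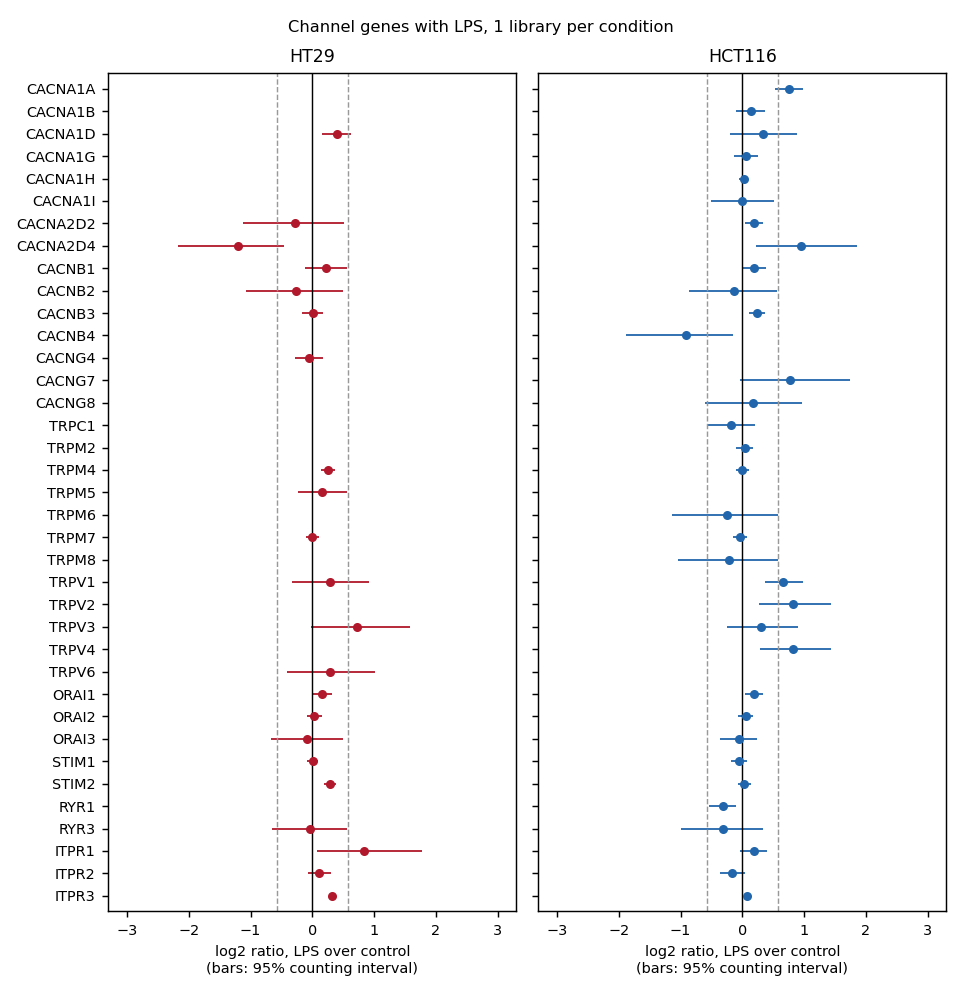
Log2 ratio of LPS over control with 95% counting intervals for the channel genes measured in HT29 (left, 22 genes) and in HCT116 (right, 34 of the 35 genes), with dashed lines at -0.58 and 0.58. Abundant genes such as ITPR3 have short bars inside the dashed lines, and those of ITPR3 lie right of 0 in both lines, further in HT29. CACNA2D4 lies left of 0 in HT29 and right of 0 in HCT116, and TRPV1, TRPV2 and TRPV4 lie together on the right in HCT116.

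Intervals that left out 0 gave a second view of the same ratios. In HT29 the interval lay above 0 for 6 genes (CACNA1D, TRPM4, ORAI1, STIM2, ITPR1 and ITPR3), below 0 for 1 (CACNA2D4) and held 0 for 15. The corresponding shares of all genes of that line were 15.9% above and 18.5% below. In HCT116 it lay above 0 for 9 (CACNA1A, CACNA2D2, CACNA2D4, CACNB3, TRPV1, TRPV2, TRPV4, ORAI1 and ITPR3), below 0 for 2 (CACNB4 and RYR1) and held 0 for 24, against 17.0% above and 18.2% below over all genes. The median log2 ratio of the channel genes was 0.13 in HT29 (16 of 22 positive) and 0.06 in HCT116 (22 of 35 positive), while that of all measured genes was -0.0076 in HT29 and -0.0025 in HCT116. The share of all genes with a positive ratio was not taken. Over all genes, ratios rose with exon length in HT29 (rank correlation 0.17) and with GC content in HCT116 (0.23). The measured channel genes were longer in HT29 (median 7873 against 5032.5 bases) and richer in GC in HCT116 (56.4% against 48.7%). No shift of the channel genes as a group is read from these medians.

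Of the HT29 intervals above 0, those of ITPR3 and STIM2, both of the store pathway, were the narrowest. ITPR3 had 11469 counts with LPS and 8369 in the control, a log2 ratio of 0.32 (interval 0.28 to 0.36). STIM2 had 1914 counts with LPS and 1427 in the control, a ratio of 0.28 (0.19 to 0.38), whereas STIM1 stood at 0.0049. ORAI1 had a ratio of 0.16 with an interval that began at 0.0013. ITPR1 had the highest ratio in HT29, 0.84 (0.073 to 1.77), from 39 counts with LPS and 19 in the control. In the TRP and voltage-gated families, TRPM4 had 1396 counts with LPS and 1067 in the control (0.25, interval 0.13 to 0.37), and CACNA1D had 379 with LPS and 262 in the control (0.39, interval 0.16 to 0.63). TRPV3 passed 0.58 at 0.71, but its interval of -0.02 to 1.58 held 0. TRPM7 and CACNG4 had ratios of 0.0001 and -0.05.

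In HCT116 the highest ratio of a gene with over 100 counts was that of CACNA1A, with 416 counts after LPS and 269 in the control (0.75, interval 0.53 to 0.98). Other alpha-1 genes of HCT116 had lower ratios, with CACNA1H at 0.02, CACNA1G at 0.06 and CACNA1B at 0.13. All 4 vanilloid genes measured in HCT116 had positive ratios, while TRPV6, below 1 CPM there, had 8 counts after LPS and 25 in the control (-1.31, interval -2.87 to -0.32). TRPV1 had 221 counts after LPS and 152 in the control (0.66, interval 0.36 to 0.98), TRPV2 had 69 and 42 (0.81, 0.27 to 1.43), and TRPV4 had 71 and 43 (0.82, 0.29 to 1.43). TRPV3, next to TRPV1 on chromosome 17, had a lower ratio of 0.31 with an interval that held 0. SHPK and an unnamed gene overlap 30.0% of the TRPV1 exon bases. RYR1 had a negative ratio, with 291 counts after LPS and 397 in the control (-0.32, interval -0.54 to -0.10), as did CACNB4 with 18 after LPS and 39 in the control (-0.91, interval -1.88 to -0.15). In HCT116, ITPR3 at 0.08 (0.03 to 0.13) and STIM2 at 0.03 had ratios nearer 0 than in HT29. ORAI1 at 0.19 (0.04 to 0.34) and STIM1 at -0.05 did not. CACNB3 stood at 0.24 (0.10 to 0.37) and CACNA2D2 at 0.19 (0.04 to 0.34), while CACNG7, with 31 counts after LPS and 19 in the control, had a ratio of 0.77 whose interval held 0.

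CACNA2D4 was the 1 channel gene whose counting intervals lay on opposite sides of 0 in the lines. It lies at chr12:1791963-1918666 on the minus strand, and its log2 ratio was -1.20 (-2.18 to -0.45) in HT29, from 18 counts with LPS and 40 in the control, and 0.95 (0.22 to 1.86) in HCT116, from 39 counts with LPS and 21 in the control. The 2 lines were not tested against each other for this ratio.

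The lines served as replicates in a joint test of LPS with the cell line as a block, in edgeR, with p-values adjusted over 14516 genes. It called 0 of the 33 channel genes in either direction, and of all genes 0.124% higher and 0.0964% lower. An unadjusted p under 0.05 was reached by 2 channel genes, and by 1 in DESeq2, which gave no adjusted p for 27 of the 33 and called 0 of the others. The share of all genes under that unadjusted p was not taken, so nothing is read from these counts. CACNA1A had a log2 fold change of 0.74 ± 0.26 (SE, adjusted p = 0.408), with only 5 and 3 counts behind it in HT29. ITPR3 had 0.20 ± 0.071 (adjusted p = 0.435) and had a positive ratio in both lines, of which that in HCT116 fell to 0.02 once length and GC trends were removed, an alternative chosen after seeing the data.

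Other genes that handle calcium, on 6 lists outside the channel families, also differed between the lines in most of their tested members, as did genes at large, of which 38.0% were called higher and 38.6% lower in HT29. Nothing particular to these lists is read from their counts. Pumps and exchangers had 4 of 9 tested genes higher and 4 lower in HT29, among them ATP2C2, a calcium pump of the secretory pathway, with 2211 and 1876 counts in HT29 against 186 and 243 in HCT116 (log2 fold change 3.45). Calmodulin, calcineurin and NFAT genes had 5 of 21 higher and 11 lower. NFATC1, the transcription factor switched on by calcineurin, was nearly absent from HT29, with 0 and 1 counts there and 919 and 931 in HCT116. Of the phospholipase C and receptor genes, 1 of 18 was higher and 12 were lower, among them PLCG2 with 8 and 11 counts in HT29 against 963 and 890 in HCT116. Among 10 tested partners of store-operated entry, 4 were higher and 4 lower, including CRACR2B, a calcium-binding regulator of ORAI1, at a log2 fold change of 2.93. Endolysosomal channels had 2 of 7 higher and 5 lower, with MCOLN3 at 0 and 2 counts in HT29 against 389 and 437 in HCT116. Mitochondrial uptake genes had 5 of 10 higher and 3 lower, and 1 of them was called in the LPS test. That gene was SMDT1, a subunit of the mitochondrial uniporter, with 3 counts in HT29 with LPS, 220 in the HT29 control and 0 in both HCT116 libraries, so its call rested on 1 library.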

How the data were processed

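The files held raw read counts per gene for 4 libraries, which the authors deposited as 1 table. Per the submitters' processing notes and the study's methods, reads were trimmed and filtered (cutadapt 1.9 and Trimmomatic 0.39 are named), aligned to hg38 with HISAT2 2.1.0 and counted with featureCounts 2.0.1. For strand, for reads with several alignments and for the annotation release, the setting is not given in the sources used here. Reads of overlapping genes therefore cannot be told apart. Symbols, positions and overlaps came from GENCODE 44.

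Counts were scaled with TMM factors (0.944 to 1.06) in edgeR 4.0.16 (R 4.3.3, limma 3.58.1). Log2 ratios of LPS over control used CPM with a prior count of 2, with 95% Clopper-Pearson intervals for counting error only. A size of 0.58, a mean of 1 CPM and an adjusted p of 0.05 were the thresholds, and a floor of 3 counts over a pair of libraries gave bounds. Both edgeR quasi-likelihood fits used all 4 libraries and left 1 residual degree of freedom. Nothing in the labels says that libraries came from separate cultures, so p-values do not measure the spread between cultures. They rest on the spread that the model leaves between these libraries, which edgeR moderates with values from all genes tested. Each SE was derived from the fold change and the test statistic. Levels between genes used the table's exon length. Genes measured in a line were named with their counts in every library, others by their range, and the genes of the other calcium lists by size of change. DESeq2 1.42.0 and other alternatives were run. The result of 1 channel gene is not reported here. The gene rule uses symbols alone, but the members, lists and tests were chosen with earlier results of these data known.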

Additional observations from a re-analysis of the deposited data

Results flagged for a closer look

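CACNA2D4, an alpha-2/delta subunit gene, had a log2 ratio of LPS over control of -1.20 in HT29 and 0.95 in HCT116, with counting intervals on opposite sides of 0. No test was made of this difference, and each ratio rests on 1 library per condition with 18 to 40 counts.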

How the results depend on the processing

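Counts of channel genes past 0.58 depended on the filter and the threshold. In HT29, 12 genes lay above it with no filter on low counts, 0 at a minimum of 5 CPM and 0 at a threshold of 1, and 3 lay below with no filter and 0 at 5 CPM. In HCT116 the corresponding counts above were 11, 2 and 0, and those below were 2 with no filter and 0 in both other settings. Without a filter the median log2 ratio was 0.27 in HT29 and 0.13 in HCT116. Shares and medians over all genes were taken only at the main setting. These counts and medians therefore show only how the filter and the threshold move them. Removing length and GC trends, added after seeing the data, gave medians of 0.097 in HT29 and 0.02 in HCT116, ITPR3 ratios of 0.24 in HT29 and 0.02 in HCT116, and a CACNA1H ratio of -0.05 in HCT116.

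Between the lines, CACNA2D4, not called in the main test, turned to -0.0301 with library size alone, and leaving out single libraries, with no block for LPS, gave CACNA2D4 values down to -0.62 and -0.28, CACNB2 0.0306, TRPM4 0.12 and ORAI1 0.0189, all also not called in the main test. The small HT29 differences of ORAI2 (adjusted p = 0.31) and TRPM7 (adjusted p = 0.16) lost their calls with library size alone, which moved the median of all genes to -0.18. ORAI2 also lost it without HT29 with LPS (adjusted p = 0.080) or the HCT116 control (0.097). TRPV6 lost its call in DESeq2 (adjusted p = 0.13), without HT29 with LPS (0.056) and without HCT116 with LPS (0.21), and CACNG8 was called without HT29 with LPS (adjusted p = 0.027). Over the settings with all 4 libraries, the number of channel genes called ranged from 8 to 11 higher and 12 to 22 lower in HT29. The ends of the lower range came from the filter, with 22 channel genes tested at 5 CPM and 50 with no filter. Of all genes tested, 80.8% were called at 5 CPM and 40.2% with no filter. The joint LPS test called 0 channel genes in the edgeR alternatives run, and in DESeq2 27 of 33 had no adjusted p and 0 of the others were called. No paired analysis was possible because each condition has 1 library, so a shared number pairs nothing beyond the cell line block that the joint LPS test already holds.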
